A study of Rattus norvegicus with 4 samples.

Results

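Protein kinase A (PKA) and the Epac exchange factors are the main intracellular receptors for cyclic AMP, and their transcripts were followed in INS-1 cells, a rat beta cell line that came from an insulinoma and still makes insulin. The set held 10 genes: the catalytic subunits Prkaca and Prkacb, the regulatory subunits Prkar1a, Prkar1b, Prkar2a and Prkar2b, the PKA inhibitor peptides Pkia and Pkib, and the Epac genes Rapgef3 and Rapgef4. Members were found by gene symbol among 18645 genes with a symbol, which gave a probe set for 9 of the 10. Prkar1a had no symbol in the deposited tables, and its probe set was identified by its transcript accession.

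INS-1 cells, of NEDH rat origin, were kept in RPMI medium with 10% serum and were given 10 µM forskolin in DMSO or no agent, in samples titled as vehicle. The 4 groups were forskolin for 2 h, vehicle for 2 h, forskolin for 16 h and vehicle for 16 h. Forskolin is a plant diterpene that activates adenylyl cyclases directly, without a receptor. Each group was 1 Affymetrix rat gene 1.0 ST array, so a difference at 1 time could not be set against replicates and was not tested. All levels are given as log2 signals, in which 1 unit is a 2-fold difference, and signals of different probe sets are not compared with each other.

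In the absence of cyclic AMP, PKA is a complex of a pair of regulatory and a pair of catalytic subunits; cyclic AMP binds the regulatory subunits and frees the catalytic ones to phosphorylate their substrates. The PKI peptides bind free catalytic subunits as pseudosubstrates, block them and carry them out of the nucleus. Epac proteins are a parallel route: cyclic AMP opens them and they load the small GTPase Rap1 with GTP. In beta cells both routes are known to enhance glucose-stimulated insulin secretion, and PKA also activates the transcription factor CREB.

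Of the 9 members found by symbol, 7 reached the signal filter, which required a highest log2 signal of at least 4.85 over the 4 arrays and left 9323 genes, here called the compared genes. Prkacb and Rapgef3 did not reach it. The filter was also passed by 26.8% of the negative control probe sets, so passing it does not show detection. None of the 7 passed only through forskolin: each exceeded the filter on a vehicle array as well. For scale, 1153 negative control probe sets had upper quartiles from 4.37 to 4.57, depending on the array, and over the compared genes 16 h minus 2 h on the vehicle arrays had an SD of 0.252. Across all probe sets, pairs of arrays correlated with Pearson coefficients of 0.985 to 0.993, which describes probe sets and not replicates.

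Genes outside the set were also read, for the treatment and the cell type. All 10 genes of a short list known to respond to cyclic AMP were above vehicle at both times, 8 of them at least 2-fold at 2 h and 6 at 16 h, and 6 passed limma's adjusted test over both times. Those 6 were Sik1, Rgs2, Nr4a1, Nr4a2, Crem and Nr4a3, with adjusted p-values between 0.00281 and 0.0472. Over all compared genes, 3.5% were at least 2-fold apart at 2 h and 4.34% at 16 h, and 1.22% passed the adjusted test. The list was chosen with earlier results of these data known, so its counts are no independent check of the treatment. Fos and Nr4a3, both counted at 2 h, reached the signal filter only on forskolin arrays. Nr4a3, 2.45-fold above vehicle at 16 h, was also counted at 16 h and among the 6 that passed the adjusted test. Those counts thus include a gene compared only through the arrays where it was high. On the vehicle arrays of 2 h and 16 h Fos read 3.18 and 3.45, and Nr4a3 3.91 and 3.70. Rgs2, which restrains G protein signalling, was 17.19-fold above vehicle at 2 h and 4.42-fold at 16 h. Crem, a CREB family gene that is itself a CREB target, was 4.65-fold above vehicle at 2 h and 2.10-fold at 16 h. Fos, Irs2 and Pde4d differed by 2.69, 0.87 and 0.41 at 2 h and by 0.87, 0.53 and 0.47 at 16 h. Per1 was 2.83-fold above vehicle at 2 h and differed by 0.59 at 16 h, and the adjusted p-values of these 4 genes lay between 0.111 and 0.351.

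All 15 beta cell markers with a probe set were among the compared genes. The insulin gene Ins1 read 13.25 with forskolin and 13.23 with vehicle at 2 h, and 13.24 with forskolin and 13.32 with vehicle at 16 h. The beta cell transcription factor gene Neurod1 fell with forskolin, by differences of -1.16 at 2 h and -1.58 at 16 h (limma adjusted p = 0.00699). Nkx6-1, another such gene, differed by -1.59 and -0.83 (adjusted p = 0.123), and Mafa by 1.31 and -0.52 (adjusted p = 0.695). Nkx6-1 read 3.84 with forskolin and 5.43 with vehicle at 2 h, and 4.04 with forskolin and 4.87 with vehicle at 16 h. Both forskolin values were below the negative controls' upper quartile, so its fold is uncertain. It reached the signal filter only on the vehicle arrays, where it was high. Among markers of other cell types (endocrine cells of the islet, pancreatic acini and ducts, fibroblasts, vessels, leukocytes), Sst, Ppy, Ptprc and Prss1 stayed at or below 3.79 on every array. The fibroblast markers were not all as low. Col1a1 read 4.50 with forskolin and 4.60 with vehicle at 2 h, and 4.31 with forskolin and 4.77 with vehicle at 16 h. Both vehicle values were above the negative controls' upper quartile, though the gene missed the filter. Col1a2 lay between 4.33 and 4.46. The glucagon gene Gcg was bright, at 12.00 with forskolin and 11.76 with vehicle at 2 h, and 12.56 with forskolin and 11.95 with vehicle at 16 h. Its part in the results below was not tested.

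Promoter windows of the members are shown first, since CREB is the transcription factor that PKA activates and its element could be looked for in them. RefSeq sequences (build GRCr8), from 250 bases before to 50 after the transcript start, were at hand for 8 of the 10 members, with 2 windows for Prkar1b. The table held no entry for Prkar2a or Pkia. Both strands were searched for the full cyclic AMP response element TGACGTCA, its core TGACG, and the GC box GGGCGG. Both catalytic subunit genes and the inhibitor gene Pkib, which had the widest difference of any compared member, are printed 5′ to 3′ on the strand of the gene, with any TGACG or its reverse complement CGTCA in capitals.
Prkaca, chr19:41083140-41083439 (minus strand): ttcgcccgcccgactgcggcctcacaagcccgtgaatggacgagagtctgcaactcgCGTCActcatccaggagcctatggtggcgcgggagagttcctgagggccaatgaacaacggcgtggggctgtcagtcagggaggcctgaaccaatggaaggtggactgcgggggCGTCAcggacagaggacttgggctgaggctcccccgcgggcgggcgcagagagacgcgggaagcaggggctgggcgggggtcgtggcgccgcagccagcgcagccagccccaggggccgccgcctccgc
Prkacb, chr2:238386266-238386565 (minus strand): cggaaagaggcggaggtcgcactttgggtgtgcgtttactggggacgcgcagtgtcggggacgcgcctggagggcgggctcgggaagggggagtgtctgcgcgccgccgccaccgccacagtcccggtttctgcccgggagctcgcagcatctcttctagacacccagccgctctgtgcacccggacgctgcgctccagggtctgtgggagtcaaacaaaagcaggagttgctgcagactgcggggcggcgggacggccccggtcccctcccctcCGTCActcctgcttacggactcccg
Pkib, chr20:37513082-37513381 (plus strand): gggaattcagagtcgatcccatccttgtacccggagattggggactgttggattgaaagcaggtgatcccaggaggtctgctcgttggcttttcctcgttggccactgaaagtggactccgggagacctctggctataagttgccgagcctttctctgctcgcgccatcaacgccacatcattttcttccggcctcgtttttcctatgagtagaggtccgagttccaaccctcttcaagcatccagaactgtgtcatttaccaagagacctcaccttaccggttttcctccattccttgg
Prkaca held the core 2 times, starting 193 and 79 bases before the transcript start, and Prkacb 1 time, starting at base 26 after it. The other 7 windows, that of Pkib among them, held none. No member window held the full element, which occurred in 1.83% of all 33469 windows of that length; the core occurred in 21.2%, so its presence in a member is a description of the sequence and not a site. GC boxes, present in 33.1% of all windows, were found in 3 copies in Prkaca, 2 in Prkacb, 5 in Prkar1a, 4 in 1 window of Prkar1b, 3 in Prkar2b and 5 in Rapgef4, with overlapping copies counted. Pkib, Rapgef3 and the other window of Prkar1b held none. The G and C share was 52.3% in the Pkib window, close to the median of 51.7% over all windows, and 79% in that of Prkar2b.

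Prkaca, which encodes the widely expressed catalytic subunit alpha, differed little between forskolin and vehicle. Its log2 signal was 7.88 with forskolin and 8.10 with vehicle at 2 h, and 7.61 with forskolin and 7.67 with vehicle at 16 h. The differences of -0.22 and -0.06 both lay within the SD of the vehicle arrays, 0.252. On arrays of whole cultures, fewer cells that express a gene and less RNA per cell cannot be told apart. By the only test the design allows, limma fitted to the 4 arrays with an additive term each for treatment and for time, the mean of both differences was -0.14 ± 0.18 (SE; adjusted p = 0.804).

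Prkacb, which encodes the catalytic subunit beta, was represented by 2 probe sets that carry the same transcript accession and differ widely in signal. The probe set with the gene symbol read 3.69 with forskolin and 4.71 with vehicle at 2 h, and 4.16 with forskolin and 4.41 with vehicle at 16 h. Only the 2 h vehicle value stood above the upper quartile of the negative controls, and this row missed the filter. Its difference of -1.02 at 2 h, 2.02-fold, was the single 2-fold difference among the 9 members at that time, from a forskolin signal near background. The other probe set, named only by accession, read 9.21 with forskolin and 9.97 with vehicle at 2 h, and 9.14 with forskolin and 9.81 with vehicle at 16 h. Both forskolin arrays were thus lower than both vehicle arrays on a probe set brighter than 98.8% or more of the negative controls on every array.

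The differences on the bright Prkacb probe set were -0.76 at 2 h and -0.67 at 16 h, or 1.70-fold and 1.59-fold lower with forskolin. With accession-named probe sets added, a choice made after the data were seen, 3.94% of 9417 compared genes were at least as low at 2 h and 5.11% at 16 h. The limma estimate over both times was -0.72 ± 0.14 (SE), with an unadjusted p of 0.000647 and an adjusted p of 0.0549, which missed the threshold of 0.05. Under 6 other settings with this probe set the adjusted p ranged between 0.0275, with a stricter filter that tests fewer genes, and 0.242, with a prior without a trend. The plot of probe set signals shows both probe sets of Prkacb lower with forskolin at both times. The one with the gene symbol lay near background and differed by only -0.26 at 16 h. Its direction and time pattern are therefore uncertain and add no support to the bright one.

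**Figure D1:**
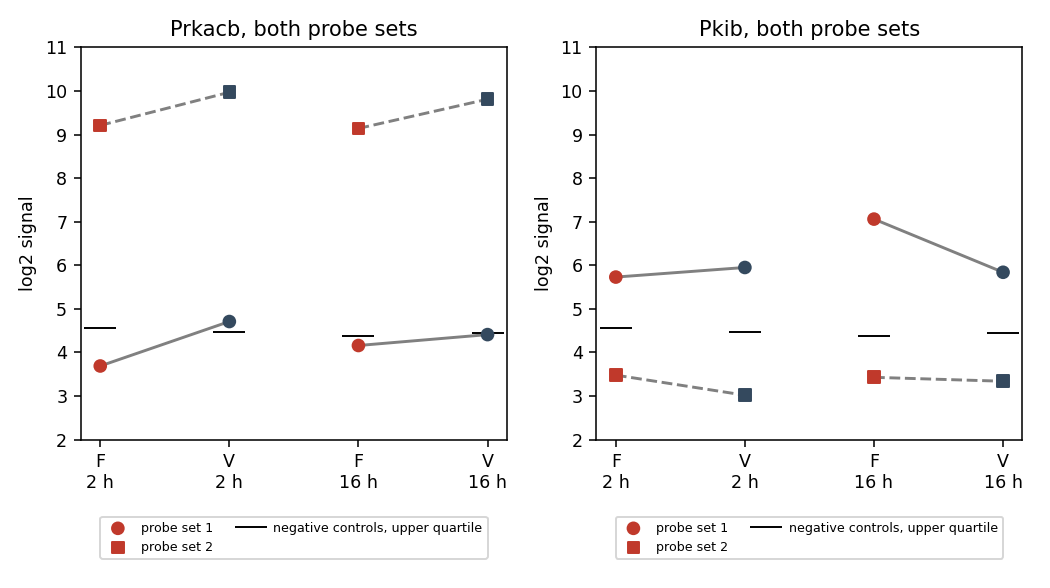
Log2 signals (y axis) of both probe sets of Prkacb and of Pkib on the 4 arrays (x axis; F forskolin in red, V vehicle in dark blue), with lines joining forskolin and vehicle of the same time and dashes at the upper quartile of the negative controls. For Prkacb, probe set 1 is the one with the gene symbol, near the dashes, and probe set 2, between 9.14 and 9.97, the one named by accession; for Pkib, probe set 1 reached 7.06 with forskolin at 16 h and probe set 2 stayed below the dashes.

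Among regulatory subunits, the type I genes stood at or above vehicle and the type II genes close to or below it, and no difference reached 1.5-fold. Prkar1a, which encodes the ubiquitous regulatory subunit RI alpha, read 11.08 with forskolin and 10.78 with vehicle at 2 h, and 10.66 with forskolin and 10.64 with vehicle at 16 h. The 2 h forskolin array was the highest of the 4 and the other 3 lay close together. Its difference was 0.29 at 2 h and 0.02 at 16 h (limma over both times 0.16 ± 0.12, SE; adjusted p = 0.623 with accession-named probe sets added). A further quantile normalization turned the 16 h difference to -0.07 and cyclic loess to -0.02.

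Prkar1b encodes RI beta, a form best known from the nervous system. Its signal was 8.25 with forskolin and 8.01 with vehicle at 2 h, and 8.60 with forskolin and 8.03 with vehicle at 16 h. Both forskolin arrays were above both vehicle arrays, and the vehicle arrays differed by 0.03. The difference was 0.24 at 2 h and 0.57, or 1.48-fold, at 16 h, and 8.29% of the compared genes were at least as high at 16 h. Over both times it was 0.40 ± 0.18 (SE) by limma, with an unadjusted p of 0.0483 and an adjusted p of 0.349.

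Prkar2a, which encodes RII alpha, read 7.11 with forskolin and 7.15 with vehicle at 2 h, and 6.74 with forskolin and 6.67 with vehicle at 16 h. Both 2 h arrays were above both 16 h arrays, with or without forskolin. Its differences were -0.04 at 2 h and 0.07 at 16 h, and further quantile normalization and cyclic loess turned that at 2 h to 0.05 and 0.11 (limma 0.02 ± 0.19, SE; adjusted p = 0.983).

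Prkar2b encodes RII beta, the regulatory form prominent in brain, fat and endocrine cells. Its signal was 6.78 with forskolin and 6.87 with vehicle at 2 h, and 5.98 with forskolin and 6.32 with vehicle at 16 h. As for Prkar2a, both 2 h arrays were above both 16 h arrays. Forskolin minus vehicle was -0.09 at 2 h and -0.34 at 16 h, and limma gave -0.22 ± 0.20 (SE; adjusted p = 0.71). The same scalings turned the 2 h difference to 0.01 and 0.07.

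**Figure D2:**
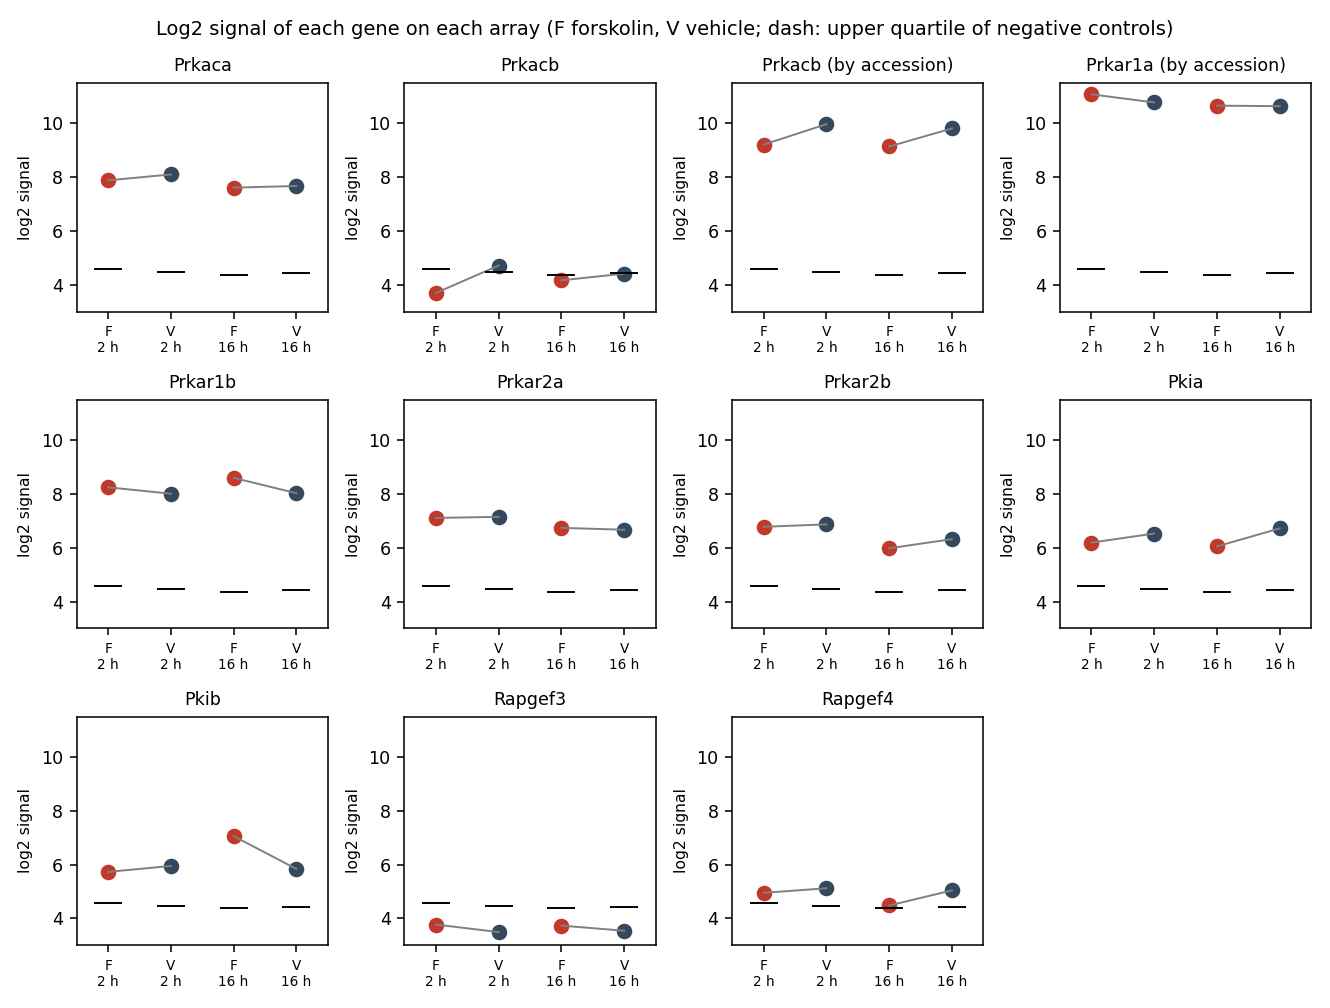
Log2 signal (y axis) of each member on each of the 4 arrays (x axis; F forskolin in red, V vehicle in dark blue, at 2 h and 16 h), 1 point per array, with lines joining forskolin and vehicle of the same time and black dashes at the upper quartile of the negative controls. Pkib on the 16 h forskolin array, at 7.06, stands apart from its other 3 arrays, and Rapgef3 lies below the dashes on all 4.

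The inhibitor peptide genes differed in opposite directions at 16 h. Pkia, which encodes PKI alpha, read 6.19 with forskolin and 6.53 with vehicle at 2 h, and 6.05 with forskolin and 6.72 with vehicle at 16 h. Both forskolin arrays were below both vehicle arrays. The difference was -0.34 at 2 h and -0.67, or 1.59-fold, at 16 h, and 5.15% of the compared genes were at least as low at 16 h. Over both times limma gave -0.50 ± 0.21 (SE), with an unadjusted p of 0.0385 and an adjusted p of 0.314.

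Pkib encodes PKI beta, the inhibitor form first described in testis. It read 5.73 with forskolin and 5.95 with vehicle at 2 h, and 7.06 with forskolin and 5.84 with vehicle at 16 h. The 16 h forskolin array stood more than 1 log2 unit above the other 3, which lay between 5.73 and 5.95. On those 3 arrays between 89.6% and 93.1% of the negative controls were dimmer, and on the 16 h forskolin array 97% were. Its 16 h difference of 1.22, or 2.33-fold, was the only one among the compared members to reach 2-fold at either time, and the gene was number 123 of 9323 from the top at that time. At 2 h the difference was -0.22, within the SD of the vehicle arrays.

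The Pkib difference at 16 h exceeded that at 2 h by 1.44, a gap reached by 0.622% of the compared genes; with 1 array per group it was not tested. Because the times disagreed, the mean over both had a wide error (limma 0.50 ± 0.32, SE; adjusted p = 0.541). A further Pkib probe set read 3.48 with forskolin and 3.02 with vehicle at 2 h and 3.43 with forskolin and 3.34 with vehicle at 16 h, dimmer on all arrays than the upper quartile of negative controls. Averaging both probe sets lowered the 16 h difference to 0.66 and turned that at 2 h to 0.12.

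The genes with the pattern most like that of Pkib were named by the Euclidean distance of the 4 signals, each centred on the mean of its gene, over the 4 arrays. Doc2b, which encodes a calcium sensor of exocytosis, was nearest at 0.08, with signals of 4.91 with forskolin and 3.62 with vehicle at 16 h and 3.48 with forskolin and 3.70 with vehicle at 2 h. Cited2, a transcriptional co-regulator gene, followed at 0.11, with differences of 1.07 at 16 h and -0.20 at 2 h. Praf2, which encodes a membrane protein of the prenylated Rab acceptor family, was also at 0.11, with 1.06 and -0.21. Doc2b was dimmer than the negative controls' upper quartile on both vehicle arrays and on the 2 h forskolin array, so its fold is uncertain. It reached the signal filter only on the 16 h forskolin array, so its place among the compared genes rests on the array where it was high.

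Of the Epac genes, Rapgef3, which encodes Epac1, was not distinguishable from background. It read 3.77 with forskolin and 3.49 with vehicle at 2 h, and 3.73 with forskolin and 3.54 with vehicle at 16 h, and between 56.1% and 60.8% of the negative controls were dimmer on each array. A further Rapgef3 probe set stayed between 3.05 and 3.22. No fold is given for this gene.

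Rapgef4 encodes Epac2, the form described in beta cells. Its signal was 4.95 with forskolin and 5.12 with vehicle at 2 h, and 4.48 with forskolin and 5.04 with vehicle at 16 h. The 16 h forskolin array was the lowest of the 4, against an upper quartile of 4.37 for the negative controls on that array. Between 76.5% and 84.8% of the negative controls were dimmer than Rapgef4 on each array. The difference was -0.18 at 2 h and -0.56 at 16 h, and 7.47% of the compared genes were at least as low at 16 h. Over both times limma gave -0.37 ± 0.27 (SE; adjusted p = 0.608).

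The counts of members past a threshold rested on single genes. At 2 h, 0 of the 7 compared members were at least 2-fold higher or lower, where 3.5% of the compared genes were. At 16 h, 1 of 7 was, Pkib, where 4.34% of the compared genes were. Without the filter the 2 h count was 1 of 9, the dim Prkacb row, against 1.92% of all 18645 genes, and the 16 h count was again 1 of 9 against 2.43%. With a 1.5-fold threshold, 0 of 7 qualified at 2 h (background 13.4%) and Pkib and Pkia did at 16 h (background 14.5%). With accession-named probe sets added, the bright Prkacb probe set qualified as well at both times. The 1.5-fold counts were then 1 of 9 lower at 2 h, and 1 higher and 2 lower at 16 h. The matching share over all genes was not computed.

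By limma over both times, 0 of 7 members passed an adjusted p of 0.05, against 1.22% of the compared genes. At an unadjusted p under 0.05, 2 of 7 did, Prkar1b with a positive and Pkia with a negative estimate, against 14.1% of the compared genes. No other tool was run. With accession-named probe sets added, 0 of 9 compared members passed, against 1.05%, and 3 of 9 did at an unadjusted p under 0.05, against 14%. The test asks whether the mean of both differences departs from 0; nothing says that cultures were replicated. Its error combines the gene's own disagreement between the times, on 1 residual degree of freedom, with a prior drawn from all compared genes, on 8.03 degrees of freedom, so the printed SEs come mostly from the prior.

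The members' median difference was -0.18 at 2 h, compared with -0.10 over all compared genes, and -0.06 at 16 h, compared with 0.02. At 2 h, 6 of 7 members were below 0, as were 63.4% of the compared genes; after a further quantile normalization or cyclic loess, 4 of 7 were. At 16 h, 4 of 7 were below 0 under all 3 scalings, and 47.2% of the compared genes were as deposited.

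**Figure D3:**
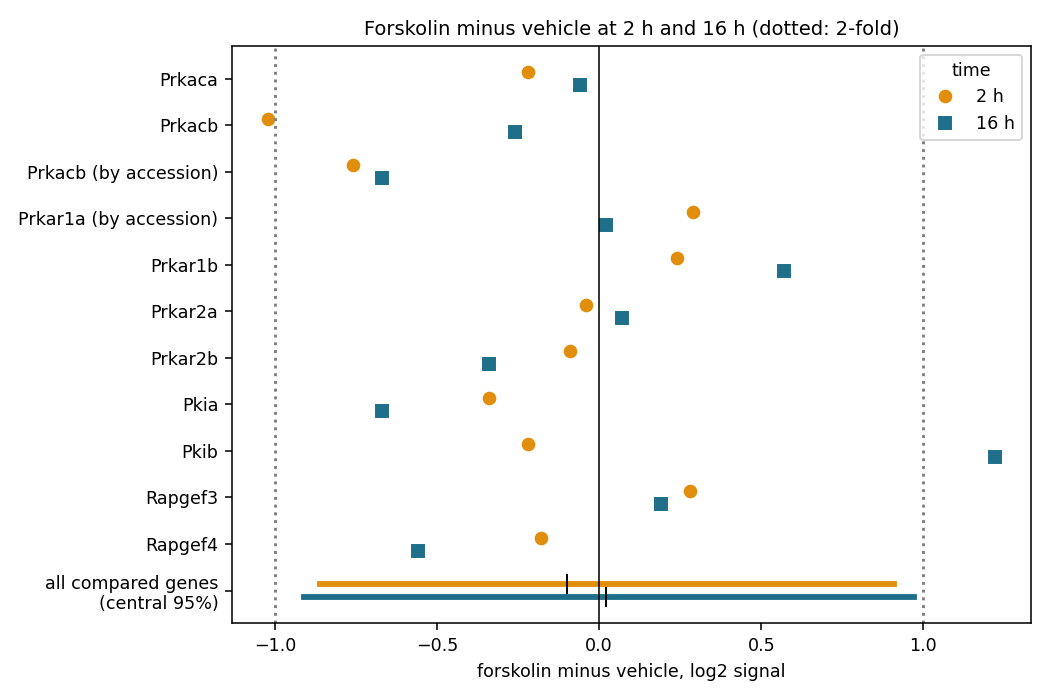
Forskolin minus vehicle in log2 signal (x axis) for each member, with Prkacb also by accession, at 2 h (orange circles) and 16 h (blue squares), with the median and the central 95% of the 9323 compared genes in the lowest row and dotted lines at 2-fold. Pkib at 16 h, at 1.22, lies beyond the central 95% of the compared genes, and the dim Prkacb row at 2 h, at -1.02, is the other point past a dotted line.

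For 3 subunits the vehicle arrays of the 2 times differed more than forskolin and vehicle did. In vehicle cells Prkar2b read 6.32 at 16 h against 6.87 at 2 h, Prkar2a 6.67 against 7.15 and Prkaca 7.67 against 8.10. These differences of -0.55, -0.47 and -0.43 exceeded in size the forskolin difference of the same gene at either time. Among the compared genes 3.07%, 5.59% and 7.87% were at least as low between the vehicle arrays, whose median difference was -0.08. Between the forskolin arrays the same 3 genes differed by -0.81, -0.37 and -0.27.

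Among the compared members found by symbol, Pkib and Prkar1b were higher at 16 h than at 2 h on the forskolin arrays. Pkib read 7.06 at 16 h against 5.73 at 2 h with forskolin, a difference of 1.33, and 5.84 against 5.95 with vehicle. Prkar1b differed by 0.35 between the forskolin arrays and by 0.03 between the vehicle arrays. Time in culture and array cannot be told apart in any of these values.

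**Figure D4:**
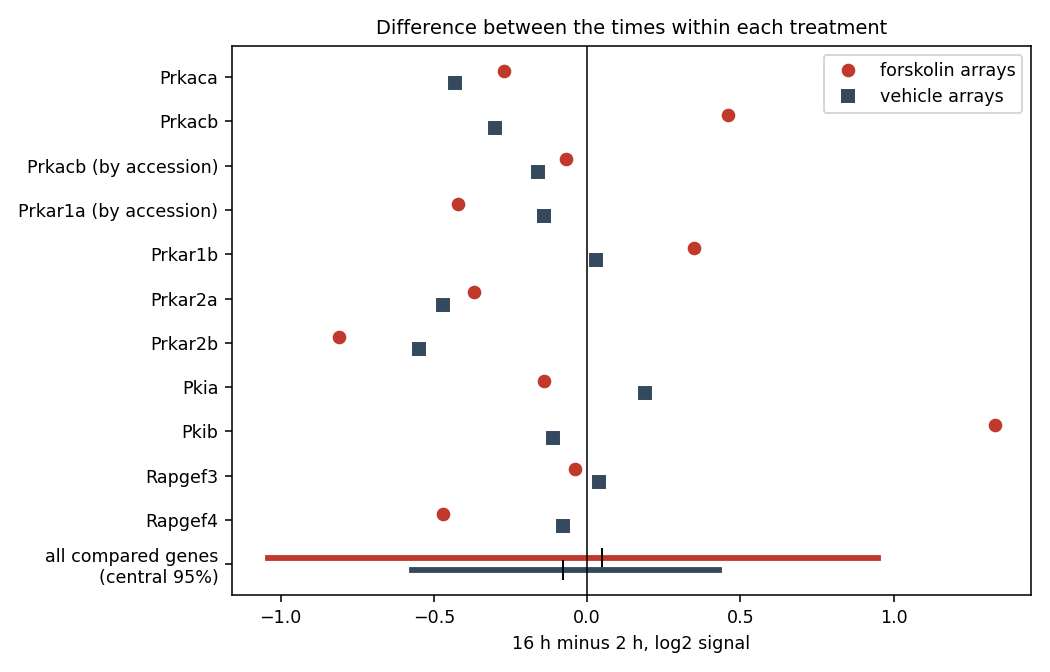
Difference between 16 h and 2 h in log2 signal (x axis) for each member on the forskolin arrays (red circles) and the vehicle arrays (dark blue squares), with the median and the central 95% of the compared genes in the lowest row. Prkaca, Prkar2a and Prkar2b lie below 0 in both treatments, and Pkib at 1.33 on the forskolin arrays lies beyond the central 95%.

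Genes that work beside PKA and Epac were counted from lists drawn up for the pathway. Over all compared genes, the shares to set beside these counts were 3.5% at least 2-fold apart at 2 h, 4.34% at 16 h, and 14.1% at an unadjusted p under 0.05. A-kinase anchoring proteins tether PKA through its regulatory subunits. Of 19 compared genes of that list, from 28 with a probe set, 1 was at least 2-fold higher at 2 h and 0 lower, with 0 in either direction at 16 h; the medians were -0.12 and -0.05. That gene was Akap12, which encodes the scaffold gravin, at 7.54 with forskolin and 6.53 with vehicle at 2 h and 6.25 with forskolin and 6.33 with vehicle at 16 h. It differed by 1.01 at 2 h and -0.07 at 16 h (limma 0.47 ± 0.27, SE; adjusted p = 0.483). Limma called 0 of the 19 at an adjusted p of 0.05 and 3 at an unadjusted p under 0.05. Pja2, which encodes a ubiquitin ligase that acts on PKA regulatory subunits, read 7.02 with forskolin and 7.77 with vehicle at 2 h, a difference of -0.74, and 7.81 with forskolin and 7.71 with vehicle at 16 h; it was named after its values were seen.

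Around Epac, 14 of 26 genes of Rap GTPases and their regulators were compared. At 2 h 1 was at least 2-fold lower and 0 higher, and at 16 h 2 were lower and 0 higher, with medians of -0.18 and 0.02. Rasgrp3 encodes an exchange factor for Ras and Rap. It read 4.69 with forskolin and 5.77 with vehicle at 2 h and 4.73 with forskolin and 6.01 with vehicle at 16 h, so both forskolin arrays were lower by more than 1 log2 unit. Rasgrp3 reached the signal filter only on the vehicle arrays. Its place among the compared genes and in these counts thus rests on the arrays where it was high. The differences were -1.08 and -1.28 (limma -1.18 ± 0.24, SE; adjusted p = 0.0628). Rap1gap2 encodes a GTPase-activating protein that switches Rap1 off. It read 6.24 with forskolin and 7.57 with vehicle at 16 h, 2.50-fold lower, and 7.23 with forskolin and 7.71 with vehicle at 2 h (limma -0.90 ± 0.23, SE; adjusted p = 0.126). Of the Rap genes themselves, which were named after their values were seen, Rap1a differed by -0.05 at 2 h and 0.12 at 16 h, Rap1b by 0.30 and -0.05, Rap2b by 0.06 and 0.08, and Rap2c by -0.36 and 0.05. Rap2a differed by 0.22 at 2 h and by 0.59 at 16 h, the highest 16 h difference among the 14 compared genes of the list. Limma called 0 of the 14, and 2 at an unadjusted p under 0.05.

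In the remaining lists no compared gene passed the adjusted test either. Among 14 compared partners of PKA and Epac in insulin secretion, 1 was at least 2-fold higher at 16 h, the SNARE gene Snap25, at 9.73 with forskolin and 8.69 with vehicle (limma over both times 0.63 ± 0.20, SE; adjusted p = 0.195); 5 of the 14 had an unadjusted p under 0.05, against 14.1% of the compared genes. Among 6 compared cyclic nucleotide channels and other cyclic nucleotide effectors, Cnga1, a channel subunit of rod photoreceptors, was 2.06-fold lower at 16 h, from signals of 3.30 with forskolin and 4.34 with vehicle that were both dimmer than the negative controls' upper quartile; 1 of the 6 had an unadjusted p under 0.05. Cnga1 reached the signal filter only on the 2 h vehicle array, at 4.95. Of 11 phosphatase genes and phosphatase inhibitors, 0 reached 2-fold at either time, with medians of -0.11 and -0.12, and 0 had an unadjusted p under 0.05. Pkig, the remaining PKI gene, had differences of -0.12 at 2 h and 0.24 at 16 h, and Prkx, a kinase gene related to the PKA catalytic subunits, of -0.06 and 0.20.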

How the data were processed

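The authors deposited log2 signals for each time point, which are gene-level RMA values per the file headers. Processing notes of the submitters name Affymetrix Expression Console 1.1.1. In RMA, probes are background-corrected, arrays quantile-normalized and probes summarized. A deposited linear ratio of forskolin over vehicle equalled 2 to the power of the log2 difference and served as a check; the series matrix signals differed by at most 5.0e-05.

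Symbols were updated through RefSeq (GRCr8, names and promoter windows only); 213 probe sets without a symbol were named by accession in an added alternative. The probe set with the highest mean stood for a gene. Genes were compared if their highest signal reached the median of that quantity, 4.85. Differences are forskolin minus vehicle of the same time. Limma 3.58.1 in R 4.3.3 was fitted to all compared genes with treatment and time as additive terms, a trend in the prior and Benjamini-Hochberg adjustment; it was tested on simulated data. Its p-values rest on each gene's disagreement between the times and on the prior, and measure no spread between replicate cultures. Precision is limited by 1 array per group.

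The members and gene lists were chosen with earlier results of these data known. Beyond the 10 members, genes named are those of each list at least 2-fold apart at either time (at most 4 per list), the cyclic AMP response genes, and the 3 genes nearest to the member with the largest difference; other genes were named after their values were seen. Alternatives concerned the filter, scaling, probe set choice, source table, fold threshold and prior. Values of 1 further marker gene of other cell types are not reported here.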

Additional observations from a re-analysis of the deposited data

Results flagged for a closer look

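Among the genes read here, 3 were flagged because forskolin minus vehicle had opposite signs at the 2 times and was large at 1. With 1 array per group the gap was not tested. The 16 h minus 2 h gap was 1.44 for Pkib, -1.09 for Akap12 and -1.83 for Mafa. Pkib at 2 h, at -0.22, and Akap12 at 16 h, at -0.07, lay within 0.252, the SD of the vehicle arrays. Averaging both Pkib probe sets turned its 2 h difference to 0.12. The opposite signs of Pkib and Akap12 are therefore uncertain. Mafa, an activator of insulin transcription, differed by -0.52 at 16 h and by 1.31 at 2 h.

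Kdr, an endothelial receptor gene listed as a marker of other cells, has a probe set named only by accession. The comparisons by gene symbol left that probe set out, and those with accession-named probe sets added included it. It read 7.86 with forskolin and 4.13 with vehicle at 2 h, a difference of 3.73, and 5.94 with forskolin and 3.82 with vehicle at 16 h, a difference of 2.12. Both vehicle arrays were dimmer than the negative controls' upper quartile. The endothelial markers Cdh5 and Pecam1 read 2.71 and 2.90 with forskolin at 2 h, and 2.71 and 2.55 with vehicle.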

How the results depend on the processing

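No paired analysis was possible because each group is 1 array, and for the same reason no replicate could be left out. The count of members at least 2-fold apart at 2 h was 0, and 1 without the filter. At 16 h it was 1, but 2 at a 1.5-fold threshold and 0 with the mean of all probe sets, where Pkib was at 0.66. The members' median at 2 h, -0.18, was -0.04 after either further scaling, -0.09 with the mean of probe sets and -0.15 under the stricter filter. At 16 h it was -0.06, but 0.01 under the stricter filter, -0.08 after quantile normalization and -0.07 after cyclic loess. These shifts are smaller than 0.252, the SD of single genes between the vehicle arrays, which is no error of a median. In addition, 0 members passed limma's adjusted test in each of the 10 settings that include the main one. With accession-named probe sets added, Prkacb passed under the stricter filter (adjusted p = 0.0275) and not under the other 6 settings. Of the single-gene alternatives 78 stayed within 0.252 of their value and 4 moved further, those of Prkacb and Pkib given above.

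Over all compared genes limma called 114, and 22 without the filter, 206 with the stricter one, 24 after a further quantile normalization, 3 after cyclic loess and 39 without a trend. Of genes at least 2-fold apart at 2 h, 59.8% were higher as deposited, 71.7% after a further quantile normalization, 77.1% after cyclic loess and 70.8% under the stricter filter. Cyclic loess moved the median of all compared genes at 2 h to 0.01, against -0.10 as deposited. Signals near background limit Prkacb by symbol, Rapgef3 and Rapgef4.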
